A study of Mus musculus with 4 samples.

Results

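Hedgehog pathway components were followed as 9 genes: the receptor Ptch1, the decoy receptor Hhip, the co-receptors Gas1 and Boc, the signal transducer Smo, the inhibitor Sufu and the transcription factors Gli1, Gli2 and Gli3. All probe sets that the platform annotation pairs with exactly 1 of these symbols were taken, which gave 25 probe sets for 9 of the 18193 genes named on the array. Mesenchymal stem cells (MSC), stromal cells that grow attached to plastic, were derived from C57BL/6 mice as 2 lines from flushed colon (colonic MSC) and 2 lines from bone marrow (bone marrow MSC), and each line was measured on 1 Affymetrix expression array. Collagenase-dissociated tissue was plated, the adherent cells were kept in low-glucose medium with 10% serum, and lysis took place at a passage between 5 and 10, so that time in culture could differ between lines. No treatment or genetic change separates the groups, the labels state neither age nor sex of the mice, and the comparison is colonic minus bone marrow MSC.

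In the Hedgehog pathway, Patched (Ptch1) holds Smoothened (Smo) inactive until a Hedgehog ligand binds Patched together with a co-receptor, after which Smo acts through the primary cilium to release Gli factors from Sufu and from processing into repressors. Gli1, Ptch1 and Hhip are themselves switched on by the pathway and are widely read as its output. In the gut, epithelial Hedgehog ligands signal to the surrounding mesenchyme, and in the skeleton Indian hedgehog from cartilage acts on bone-forming cells.

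The 4 arrays had median intensities from 53.6 to 55.4, and the arrays' number limits the precision of every value. Of 9 MSC surface markers 8 had a named probe set and passed the filter on low values, and Itgb1, Cd44 and Pdgfrb were at 3377 or more on all 4 arrays. Thy1, a defining MSC marker, was at 4516 and 9032 in colonic MSC and at 32.8 and 22.0 in bone marrow MSC. Nt5e, another defining marker, was at 209 and 27.6 in colonic MSC and at 76.3 and 27.9 in bone marrow MSC, and Vcam1 was at 2281 and 266 in colonic MSC and at 2206 and 2535 in bone marrow MSC. Eng was well above the filter in every line, at 330 and 1035 in colonic MSC and at 1323 and 445 in bone marrow MSC. So was Pdgfra, at 492 and 743 in colonic MSC and at 1609 and 2493 in bone marrow MSC. The pan-leukocyte gene Ptprc, the epithelial gene Epcam, the endothelial gene Pecam1 and the glial gene Sox10 stayed below an intensity of 33 on every array. All 6 smooth muscle markers passed the filter, with summed intensities of 54890 and 45651 in colonic MSC and 39348 and 27521 in bone marrow MSC. Within the colonic lines, the desmin gene Des was at 2379 in replicate 1 and 47.9 in replicate 2, while Acta2 was at 17010 and 16801. Of 9 intestinal epithelial markers 6 passed, with sums of 3081 and 338 in colonic MSC against 6517 and 5448 in bone marrow MSC, most of it Krt19 in every line but colonic replicate 2. Of 10 macrophage and blood cell markers 8 passed, with sums of 1974 and 3076 in colonic MSC and of 2988 and 1277 in bone marrow MSC. Among them the leukocyte gene Cd53 was at 155 and 1333 in colonic MSC and at 14.0 and 15.7 in bone marrow MSC. Endothelial markers (3 of 5 passed) summed to 239 and 177 in colonic MSC and 132 and 100.4 in bone marrow MSC, with the receptor gene Kdr at 91.1 and 68.9 in colonic MSC and at 31.9 and 18.5 in bone marrow MSC. Enteric glia, neuron and interstitial cell markers (1 of 6 passed, Uchl1) summed to 902 and 178 in colonic MSC and 220 and 208 in bone marrow MSC. The part of such cells in the differences between tissues was not tested.

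Ptch1 and Gas1 had lower signal in both colonic lines than in either bone marrow line, Boc had higher signal, and Smo, Sufu and Gli3 had tissue means that differed by less than the spread within a tissue. Gli1 and Hhip lay near the floor of the array, here about or below the filter described next, in both tissues, and Gli2 was near the floor in 1 bone marrow line and bright in the other 3 lines. Of the 25 probe sets, 16 of 7 genes exceeded the filter, a mean intensity of 33.3 over the 4 arrays, and were tested. With limma's moderated test and Benjamini-Hochberg adjustment over 27022 probe sets, 0 of these 16 passed an adjusted p of 0.05 (the lowest was 0.552), and 0% of all probe sets passed it. At an unadjusted p below 0.05 stood 6 of the 16, against 1520 of all probe sets tested (5.63%). Of the 6, 4 were lower and 2 higher in colonic MSC, against 2.47% lower and 3.16% higher among all probe sets. These 6 belong to 3 genes only, with 3 probe sets of Gas1, 2 of Boc and 1 of Ptch1, so they are not separate observations. The count among members depended on which array was left out, and so did the count over all probe sets, so neither is a stable number. Colonic and bone marrow values did not overlap in the same 6 of 16 probe sets (37.5%), a share near the 33.4% of all probe sets tested (4 with colonic lower, against 15.5%, and 2 with colonic higher, against 17.9%). With 1 probe set a gene, 3 of the 7 tested genes did not overlap, against 33.7% of all genes, and 4 differed by at least 1 on the log2 scale, against 9.52%. The 4 include Gli2, which overlapped between tissues and whose difference rested on bone marrow replicate 1.

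**Figure D1:**
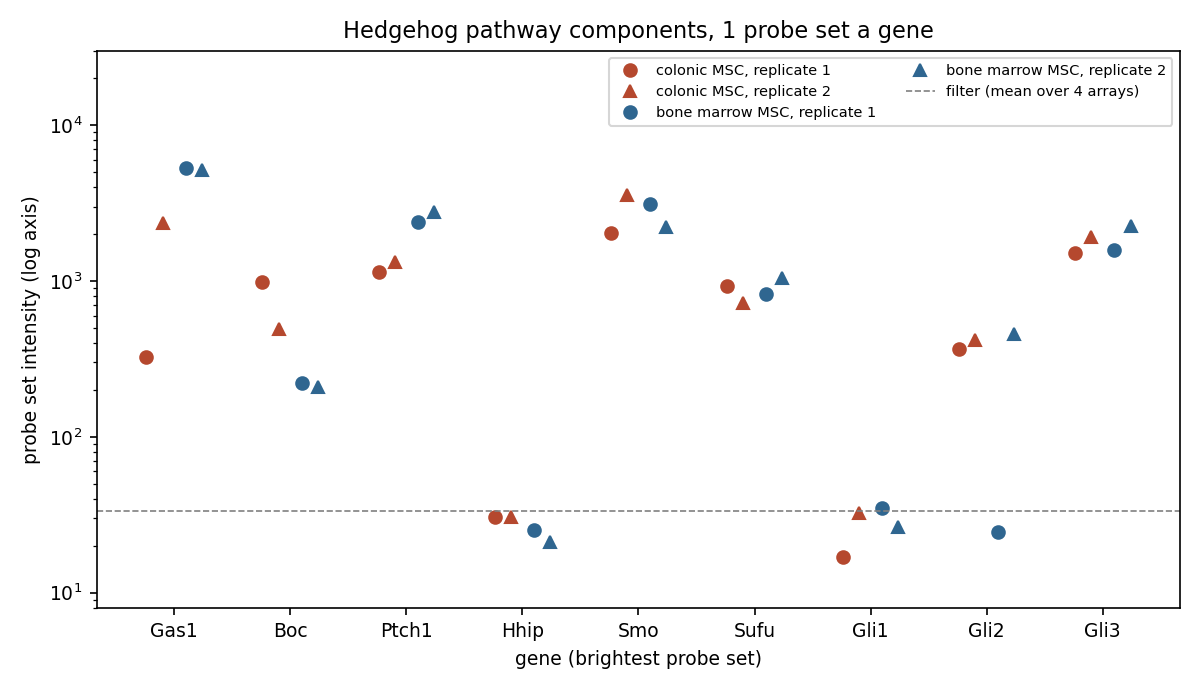
Intensity of the brightest probe set of each of the 9 genes (log axis) on the 2 colonic arrays (left, red) and the 2 bone marrow arrays (right, blue), with circles for replicate 1, triangles for replicate 2 and a dashed line at the filter of 33.3. Gas1 and Ptch1 are lower and Boc higher in both colonic lines, Hhip and Gli1 lie around the dashed line, and 1 bone marrow array stands apart in Gli2 at 24.7.

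Ptch1, the Hedgehog receptor and one of the pathway's own target genes, had intensities of 1143 and 1323 in colonic MSC and of 2389 and 2756 in bone marrow MSC (probe set 1428853_at). The lines of a tissue lay close together and the tissues did not overlap, the nearest colonic and bone marrow arrays being 1.81-fold apart. The means were 1233 ± 127 in colonic MSC and 2573 ± 259 in bone marrow MSC (SD, n = 2 each). The log2 difference was -1.05 ± 0.24 (SE), with a 95% interval from -1.68 to -0.42. Its unadjusted p of 0.00826 became 0.552 after adjustment in limma, so the difference did not pass. In these bulk cultures fewer cells that express a gene and less RNA per cell cannot be told apart. The other 2 probe sets of Ptch1 were near the floor, between 5.74 and 18.3 on every array, and were not tested. They too were lower in both colonic lines, at 13.6 and 14.8 against 17.2 and 18.3 for 1450824_at. For 1439663_at the values were 5.74 and 13.3 against 14.4 and 14.6. No detection call was available for intensities this low, so the order of these values adds no support.

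The promoter windows of Ptch1 and Gas1 are shown because these are the members with lower signal in both colonic lines in every tested probe set. Both come from RefSeq on GRCm38.p6, run from 250 bases before to 50 bases after the gene's start on the minus strand, and lie at chr13:63565686-63565985 for Ptch1 and chr13:60177486-60177785 for Gas1. Capitals mark the GC box, GGGCGG or its reverse complement CCGCCC.
Ptch1: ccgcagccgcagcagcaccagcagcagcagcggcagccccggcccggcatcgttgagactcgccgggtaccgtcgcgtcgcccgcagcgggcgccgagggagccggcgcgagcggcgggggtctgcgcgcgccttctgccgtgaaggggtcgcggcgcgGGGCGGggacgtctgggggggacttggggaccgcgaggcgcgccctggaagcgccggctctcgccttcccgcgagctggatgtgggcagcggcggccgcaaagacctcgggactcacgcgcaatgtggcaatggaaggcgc
Gas1: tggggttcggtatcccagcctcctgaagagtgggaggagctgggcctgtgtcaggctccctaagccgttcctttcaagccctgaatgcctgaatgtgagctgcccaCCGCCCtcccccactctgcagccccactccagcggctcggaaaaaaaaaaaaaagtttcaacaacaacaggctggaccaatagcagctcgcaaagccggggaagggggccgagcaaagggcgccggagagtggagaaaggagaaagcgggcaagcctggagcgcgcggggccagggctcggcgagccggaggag
Promoter windows were found for 7 of the 9 genes, and Gli1 and Boc are named only. The GLI consensus GACCACCCA was found on either strand in 0 of the 7 windows, against 0.253% of 32851 mouse promoter windows of the same length. Its core ACCACCC, which lies inside the consensus, was found in the window of Gli2 alone, against 4.61% of all windows. A GC box was found in 6 of 7 windows (all but Smo) against 35.7% of all windows, and TATAAA in 0 of 7 against 13.6%. GC content was 76.3% for Ptch1 and 62.3% for Gas1, with a range from 56.3% (Sufu) to 76.3% (Ptch1) over the 7 genes and a median of 52.7% over all windows. With so low a share over all windows, 0 of 7 says nothing about the GLI consensus in these genes, and bases outside the windows were not searched. The GC box consists of G and C alone, and its share was not compared at like GC content. These matches describe the letters in the windows and no binding was measured.

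Hhip, a membrane protein that binds Hedgehog ligands without signalling and is itself a pathway target, was near the floor in all its 4 probe sets. The brightest, 1455277_at, had 30.5 and 30.5 in colonic MSC and 25.2 and 21.0 in bone marrow MSC. The tissues did not overlap there, but the nearest arrays were 1.21-fold apart, and 1421426_at had 33.3 and 17.4 in colonic MSC against 19.1 and 24.1 in bone marrow MSC, with overlap. The remaining 2 probe sets stayed at or below 12.9. No probe set of Hhip passed the filter, so none was tested, and a low intensity does not show absence.

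Gas1, a lipid-anchored co-receptor that presents Hedgehog ligand to Patched, had intensities of 325 and 2346 in colonic MSC and of 5319 and 5121 in bone marrow MSC (1416855_at). Both colonic lines were below both bone marrow lines, by 2.18-fold at the nearest, and the colonic lines differed from each other by 7.21-fold while the bone marrow lines differed by 1.04-fold. The second probe set, 1448494_at, had the same order, with 78.4 and 584 in colonic MSC and 1672 and 1616 in bone marrow MSC. The third, 1456322_at, was dim, with 30.3 and 48.8 in colonic MSC and 73.6 and 82.0 in bone marrow MSC. On the log2 scale, colonic minus bone marrow MSC was -2.55 ± 0.94, -2.82 ± 0.93 and -0.80 ± 0.29 (SE) for the 3 probe sets. Their unadjusted p values were 0.0447, 0.0313 and 0.0433, and limma's adjusted p was between 0.815 and 0.873. Without colonic replicate 2 the difference of the brightest probe set was -3.95, and without colonic replicate 1 it was -1.15. Each of these fits has 1 colonic array and takes its spread from the bone marrow lines alone. With all 4 arrays, limma's adjusted p for Gas1 ranged from 0.658 to 0.910 over the other settings. Colonic replicate 1, where Gas1 was lowest, is also the line with Des at 2379, the smooth muscle myosin gene Myh11 at 1123 against 43.4 in colonic replicate 2, and the enteric marker Uchl1 at 814 against 100.3. The other smooth muscle markers differed far less between colonic replicates 1 and 2. Acta2 was at 17010 and 16801, Actg2 at 11568 and 12248, Cnn1 at 11529 and 8477 and Mylk at 11280 and 8033. The enteric markers S100b, Sox10, Kit and Elavl4 were at 31.0 or less in both colonic lines. The colonic lines also differed in Krt19, at 1890 and 105, in Cd53 and in Vcam1, and the part of these genes' cells in the Gas1 value was not tested.

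Boc, an immunoglobulin-type co-receptor of Hedgehog ligands, had the opposite direction, with 980 and 495 in colonic MSC and 222 and 209 in bone marrow MSC (1426869_at). Probe set 1427516_a_at gave nearly the same values, 918 and 504 in colonic MSC and 220 and 234 in bone marrow MSC. The nearest colonic and bone marrow lines were 2.23-fold and 2.15-fold apart in the 2 probe sets, with colonic replicate 1 the highest. The log2 differences were 1.63 ± 0.44 and 1.53 ± 0.41 (SE), with 95% intervals from 0.49 to 2.78 and from 0.46 to 2.60, and limma's adjusted p was 0.687 for both. The third probe set, 1427517_at, was dim and overlapped, at 52.4 and 36.4 in colonic MSC and 30.4 and 62.6 in bone marrow MSC, with a log2 difference of -0.01 ± 0.37 (SE). The 3 probe sets of Boc therefore disagree, although the annotation ties the dim one to the same transcript sequence as 1427516_a_at.

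Cdon, the close relative of Boc with the same function and no member of the 9, had 368 and 631 in colonic MSC and 1053 and 1236 in bone marrow MSC (1434957_at). It thus lay lower in both colonic lines, as Gas1 did, with a log2 difference of -1.22 ± 0.38 (SE) and an adjusted p of 0.792 in limma. Its dimmer probe set, 1421452_at, had 86.5 and 75.8 in colonic MSC and 94.3 and 105.7 in bone marrow MSC, a log2 difference of -0.26 ± 0.27 (SE). Across the co-receptors, the brightest probe sets of Gas1 and Cdon were thus below, and that of Boc above, the bone marrow values in both colonic lines.

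**Figure D2:**
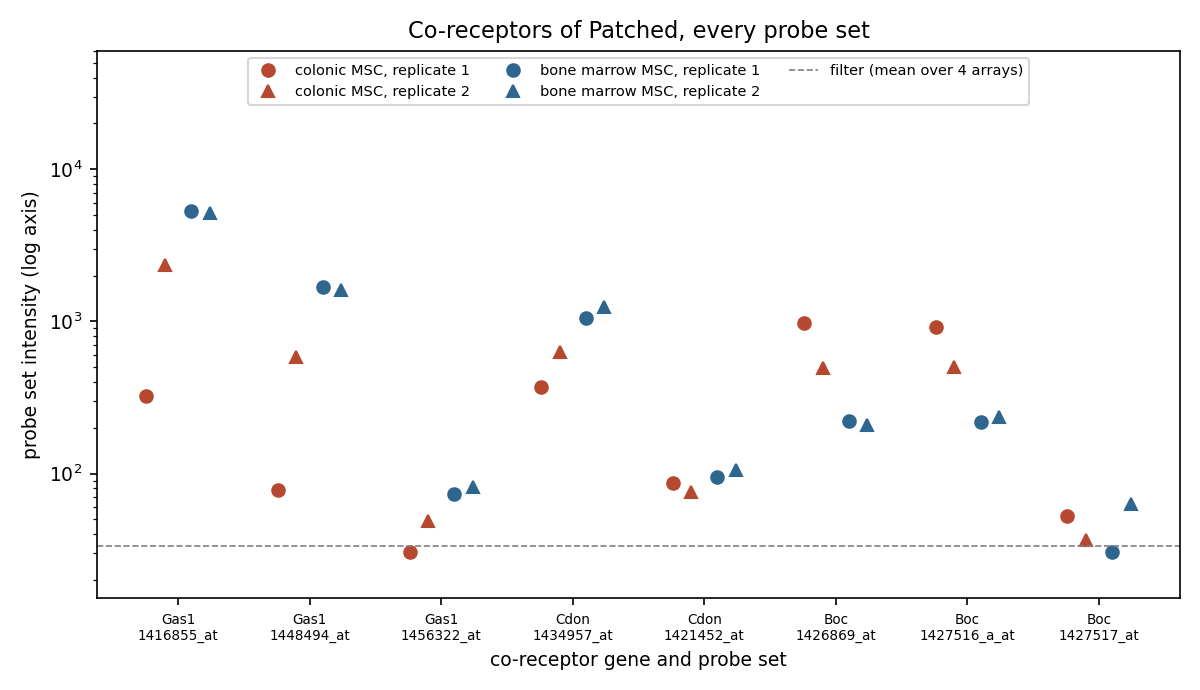
Intensity (log axis) of every probe set of the co-receptors Gas1, Cdon and Boc on the 2 colonic arrays (left, red) and the 2 bone marrow arrays (right, blue), with circles for replicate 1 and triangles for replicate 2. All 3 Gas1 and both Cdon probe sets are lower in the colonic lines, the 2 bright Boc probe sets are higher, and the third Boc probe set overlaps around the filter of 33.3.

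Smo, the membrane protein that Patched restrains and that passes the signal on, was bright on all arrays and overlapped between tissues. Its brightest probe set, 1427049_s_at, had 2018 and 3576 in colonic MSC and 3141 and 2225 in bone marrow MSC. The second, 1427048_at, had 1101 and 2023 in colonic MSC and 1925 and 879 in bone marrow MSC. In both probe sets colonic replicate 2 was above colonic replicate 1, and bone marrow replicate 1 above bone marrow replicate 2. The log2 difference of the brightest was 0.02 ± 0.36 (SE), with a 95% interval from -0.93 to 0.97, which leaves room for a change of nearly 2-fold in either direction. The third probe set of Smo stayed at or below 13.6.

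Sufu, which holds Gli proteins in the cytoplasm, had 931 and 719 in colonic MSC and 825 and 1046 in bone marrow MSC (1450024_at). The tissues overlapped, with a log2 difference of -0.18 ± 0.32 (SE) and a 95% interval from -1.02 to 0.66. Its 2 dimmer probe sets lay between 50.6 and 88.1 on all arrays, with log2 differences of 0.05 and 0.07.

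Among the Gli factors, Gli1, an activator that is itself switched on by the pathway, was near the floor. Its only probe set, 1449058_at, had 16.8 and 32.6 in colonic MSC and 35.2 and 26.5 in bone marrow MSC, overlapped between tissues and did not pass the filter. Both tissues thus had the brightest Ptch1 probe set at intensities of 1143 or more while the probe sets of Gli1 and Hhip, the other pathway-induced genes among the 9, were at or below 35.2. Brightness depends on the probes as well as on the RNA, so this is not a comparison of amounts.

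Gli2, the main activator of the pathway in mouse embryos, had 366 and 418 in colonic MSC and 24.7 and 458 in bone marrow MSC (1459211_at). Its other probe set, 1446086_s_at, which the annotation ties to the same transcript sequence, had 74.8 and 128 in colonic MSC and 12.9 and 118 in bone marrow MSC. Bone marrow replicate 1 alone was low in both, below the filter of 33.3, so that the size of its gap to the other lines is not given as a fold. The log2 difference of 1.59 ± 1.22 (SE, limma adjusted p = 0.990) rested on that array, being -0.22 when it was left out and 3.40 without bone marrow replicate 2. The bone marrow lines, replicate 1 and then replicate 2, also differed in the smooth muscle gene Cnn1, at 8623 and 33.0, and in the myeloid gene Lyz2, at 1589 and 31.7. Other smooth muscle markers differed far less between these lines. Acta2 was at 16513 and 15980, Actg2 at 8763 and 7332 and Mylk at 5355 and 4135. Des was at 52.4 and 25.1 and Myh11 at 41.3 and 16.7. Other macrophage and blood cell markers went in either direction between these 2 lines. Csf1r was at 266 and 148, Cd68 at 57.8 and 28.9 and Cd14 at 810 and 735. Itgam was at 48.4 and 87.7 and Cd53 at 14.0 and 15.7. The part of these genes' cells in the Gli2 value was not tested.

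Gli3, the factor that acts mostly as the repressor of the pathway, was bright on all arrays. Probe set 1455154_at had 1511 and 1927 in colonic MSC and 1591 and 2240 in bone marrow MSC, and 1456067_at had 418 and 509 in colonic MSC and 374 and 560 in bone marrow MSC. Both overlapped between tissues, and in the brighter one the lines differed by 1.27-fold in colonic MSC and by 1.41-fold in bone marrow MSC. The log2 differences were -0.14 ± 0.29 and 0.01 ± 0.36 (SE), with 95% intervals from -0.92 to 0.63 and from -0.94 to 0.96. The third probe set stayed at or below 29.4.

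**Figure D3:**
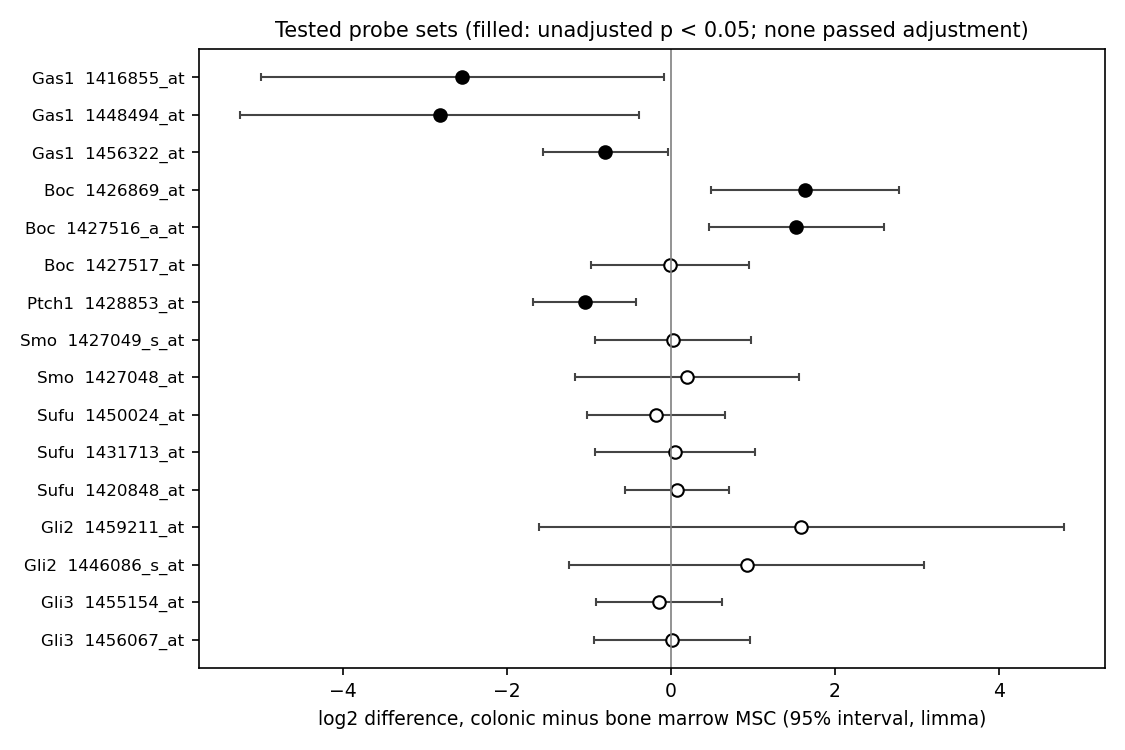
Log2 difference, colonic minus bone marrow MSC, of the 16 probe sets that passed the filter, with limma's 95% intervals over 2 arrays per tissue and filled points for an unadjusted p below 0.05. The 3 Gas1 probe sets and Ptch1 lie left of 0 and 2 Boc probe sets right of it, and the interval of Gli2 1459211_at is the widest, from -1.61 to 4.79.

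The other genes of the pathway were read from 4 lists with 95 genes, of which 89 had a named probe set and 77 passed the filter. With limma, 0 of the 77 passed an adjusted p of 0.05 and 6 had an unadjusted p below 0.05, against 6.56% of the 12930 genes tested. Ligands and the proteins that release or carry them had 6 of 12 genes above the filter, with 0 higher and 1 lower at an unadjusted p below 0.05 and a median log2 difference of 0.19, against 0.01 over all genes. The ligand genes Shh and Dhh were below the filter, at 31.1 or less on every array, and Ihh lay between 38.5 and 57.5. Gpc1, a glypican that carries Hedgehog ligands at the cell surface, was the lower gene, at 1413 and 1306 in colonic MSC and 4088 and 2866 in bone marrow MSC (log2 difference -1.32 ± 0.26, SE, limma adjusted p = 0.449). Hhat and Disp1, the genes of the acyltransferase that modifies the ligands and of their release protein, had log2 differences of 0.42 and 0.27. Disp1 overlapped between tissues, and the nearest arrays of Hhat were 1.06-fold apart. The dim Hhat probe set 1425636_at overlapped, with a log2 difference of -0.02. The endocytic receptor gene Lrp2 passed the filter through colonic replicate 1 alone, at 83.7 and 22.5 in colonic MSC and 18.9 and 14.3 in bone marrow MSC. Its probe sets below the filter went in opposite directions. Probe set 1427133_s_at was higher in the colonic lines, at 44.6 and 16.1 against 6.06 and 3.54 in bone marrow MSC. The colonic lines were lower in 1445901_at, which was at 20.3 or less on every array.

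Regulators of Smo and Gli had 24 of 27 genes above the filter, of which 0 were higher and 1 was lower at an unadjusted p below 0.05 (4.17%, against 6.56% of all genes), with a median log2 difference of 0.02. The lower gene was Cdon. Next in the order of p were Prkar1a, a regulatory subunit of protein kinase A (-0.33), Numb (0.49) and Mosmo, a modulator of Smo (0.41), on the log2 scale. Their other probe sets above the filter did not give the same sizes. Prkar1a 1452032_at, almost as bright, overlapped between tissues with a log2 difference of -0.07, and the dim Numb 1425368_a_at overlapped with -0.11. A dimmer probe set of Mosmo, 1457706_at, differed more, with 417 and 267 in colonic MSC and 116 and 137 in bone marrow MSC (log2 difference 1.31 ± 0.36, SE). The primary cilium genes had 31 of 34 members above the filter, 0 in either direction at an unadjusted p below 0.05, and a median of -0.01, with all differences between -0.79 and 0.35. The intraflagellar transport gene Ift80 was at the low end, at 487 and 753 in colonic MSC and 1131 and 985 in bone marrow MSC, while its dimmer probe set 1428329_a_at overlapped. It was followed in the order of p by Ift172 (-0.37), Mks1 (-0.49) and Bbs1 (-0.45).

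Genes known as Hedgehog targets in mesenchyme or other tissues had 16 of 23 members above the filter, with 3 higher and 1 lower at an unadjusted p below 0.05 (25% together, against 6.56% of all genes, of which 473 were higher and 375 lower) and a median log2 difference of 0.27. Several of them answer to other pathways too. The list was chosen with earlier results of these data known, so its share beside that of all genes is no test. The forkhead gene Foxf1, a Hedgehog target of gut mesenchyme, had 1566 and 1188 in colonic MSC and 39.8 and 31.9, about the filter, in bone marrow MSC (1434939_at). Its log2 difference was 4.80 with an adjusted p of 0.0696 in limma. The other probe set, 1423013_at, had 65.7 and 64.1 in colonic MSC and 13.1 and 14.6 in bone marrow MSC, so it passed the filter through the colonic arrays alone and adds no separate support. Wnt5a, a Wnt ligand of gut mesenchyme, had 1897 and 1696 in colonic MSC and 1025 and 490 in bone marrow MSC. Its 3 probe sets above the filter had log2 differences of 1.32, 1.49 and 1.79, all without overlap. Foxd2 differed by 1.32 ± 0.41 (SE), with its other probe set near the floor and overlapping. Bmp4, a growth factor gene, was the lower one, at 134 and 20.6 in colonic MSC and 1546 and 1136 in bone marrow MSC, with a log2 difference of -4.23 ± 0.76 (SE). Without overlap, 4 targets were higher and 3 lower in colonic MSC (43.8% together, against 33.7% of all genes). The lower ones were Bmp4, Sfrp1 and Foxc2, the last 2 not at an unadjusted p below 0.05 in limma. Sfrp1 had 439 and 102 in colonic MSC and 642 and 4332 in bone marrow MSC. Foxc2 had 1455 and 2219 in colonic MSC and 3263 and 2618 in bone marrow MSC. The target list therefore held genes on both sides, and Ptch1, the component that is both receptor and target, was on the lower side.

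**Figure D4:**
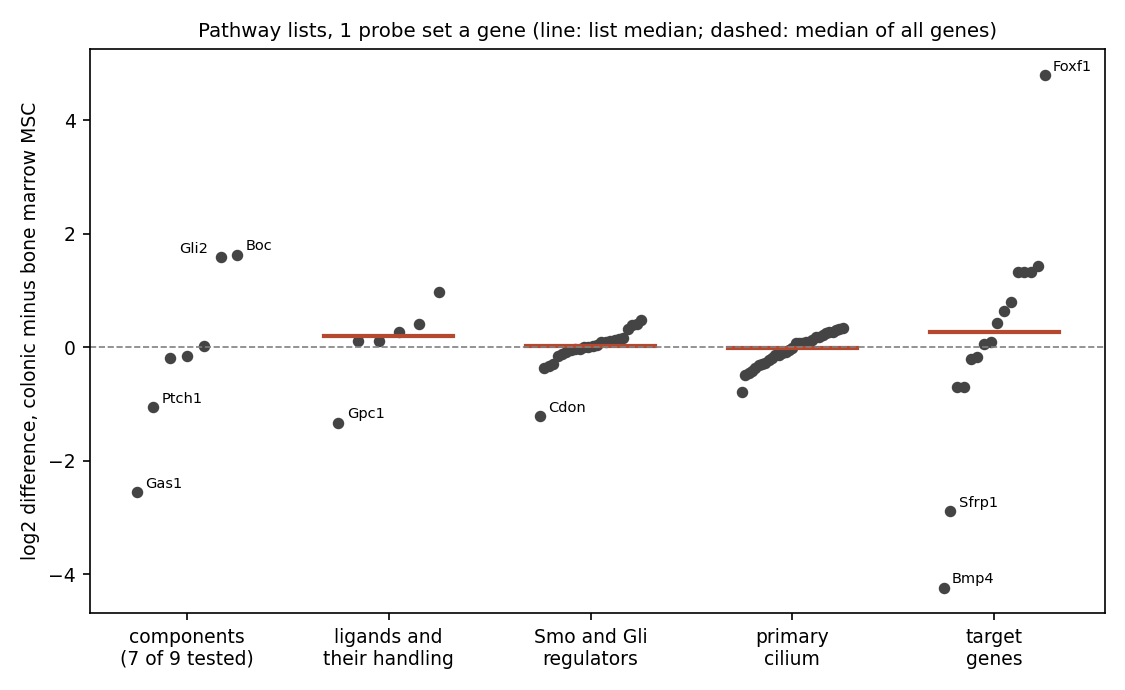
Log2 difference, colonic minus bone marrow MSC, of each gene above the filter (1 probe set a gene) for the 7 tested components and 4 lists of other pathway genes, with red lines at the list medians and a dashed line at the median of all genes, 0.01. Cilium genes lie between -0.79 and 0.35, while the targets spread from -4.23 (Bmp4) to 4.80 (Foxf1).

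On the log2(intensity + 13.7) scale, Ptch1 ranged over 1.26 across the 4 arrays, against 0.68 for Gli1 and 0.35 for Hhip. The added constant narrows the range of dim probe sets, and the plain intensities of Gli1 spanned 2.09-fold. By a rule that asked for a range of at least 1 on that scale, genes with a like pattern were sought for Ptch1 alone. Likeness was the root mean square difference of gene-centred log2 values over the 4 arrays, among 12930 genes. The nearest were Pdp1 (0.03), Isg20 (0.06) and Rictor (0.06). Pdp1, a pyruvate dehydrogenase phosphatase gene, had 465 and 539 in colonic MSC and 956 and 1072 in bone marrow MSC. With 4 arrays many patterns are alike, and the likeness is a description.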

How the data were processed

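Amplified, biotinylated RNA of 4 MSC lines was measured on Affymetrix arrays, per the labels' protocols and the series' own design text. The authors deposited linear probe set intensities, as judged from the values. How they summarised probes, corrected background and scaled arrays is not given in the sources used, and no detection call was used. Array controls (64 of 45101 probe sets) were left out. Of the rest, 34945 had 1 symbol, 932 several and 9160 none in the platform annotation. A gene was represented by its probe set of highest mean. Values became log2(intensity + 13.7), the pseudocount being 0.25 of the table median, which understates changes of dim genes, and the deposited scaling was kept since the arrays' log2 medians lay within 0.04 of each other. Probe sets whose mean exceeded the 40th percentile (33.3) were fitted with limma 3.58.1 in R 4.3.3 (lmFit, eBayes with intensity trend, tissue as the only term, 2 residual and 2.69 prior degrees of freedom). P-values are two-sided and adjusted by Benjamini-Hochberg over 27022 probe sets with a threshold of 0.05. They weigh a difference against the spread between these lines, moderated toward that of other probe sets of like intensity. An exact permutation of 2 against 2 arrays cannot go below 0.333, so none is given. The procedure was tested on simulated data. The members, lists and tests were chosen with earlier results of these data known. Named were all members, of each list the genes past the threshold and the 4 with the lowest p, and the 3 genes nearest in pattern to Ptch1. Shh, Dhh, Ihh, Sfrp1, Foxc2 and the cell type markers named were chosen after their values were seen. List genes without a named probe set are not analysed here. Other settings tried were median centring or quantile normalization, a pseudocount of 1 or of the table median, a filter at the 60th percentile or none, robust eBayes, no trend, a replicate block, 1 probe set or the mean of probe sets per gene, an adjusted p of 0.1, and leaving out each array.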

Additional observations from a re-analysis of the deposited data

How the results depend on the processing

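The count of member probe sets past an adjusted p of 0.05 in limma was 0 under each alternative except one: leaving out each array in turn gave 0 to 1, the 1 being Gas1 without colonic replicate 2. Other pathway genes past the threshold numbered 0, with 1 at an adjusted p of 0.1 and 0 to 1 with an array left out. Over all probe sets the count of 0 became 12 with a filter at the 60th percentile, 54 at an adjusted p of 0.1 and 0 to 96 with an array left out (70 without colonic replicate 1 and 96 without colonic replicate 2). Those fits take the variance of the tissue with 1 array from the other tissue. With the replicate number as a block the counts were 0, 0 and 0, and the Ptch1 difference was -1.05 with an adjusted p of 0.533 (0.331 to 1.00 over its 15 alternatives). Same-numbered lines deviated together with r = 0.14 over probe sets, and nothing in the labels pairs them. Ptch1, Gas1 and Boc kept their direction in all 15 alternatives, between -1.16 and -0.95, -3.95 and -1.15, and 1.05 and 2.12 on the log2 scale. The small differences of Gli3, Smo and Sufu turned their sign when an array was left out, and so did the larger one of Gli2 (1.59 with all arrays). Gli3 ranged from -0.39 to 0.10, with 0.03 when colonic replicate 1 was left out. Smo ranged from -0.39 to 0.43 (-0.22 with the second bone marrow line left out), Sufu from -0.36 to 0.00302, and Gli2 from -0.22 when bone marrow replicate 1 was left out to 3.40. The cause was not tested. Signal over background limits Gli1 and Hhip, which had no tested probe set. Without the filter their log2 differences were -0.24 and 0.27 in limma, with adjusted p of 0.981 and 0.979.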
